A study of Mus musculus with 20 samples.

Results

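Genes of sebaceous and epidermal lipid synthesis were followed through 20 mouse RNA-seq libraries. The 10 genes were chosen by name from the 55471 genes of the count table: Scd1, Scd3, Elovl3, Elovl4, Fads2, Fasn, Awat1, Awat2, Cidea and Mgst1. The libraries came from the epidermis of the back skin of wild-type (WT) mice given DNFB (2,4-dinitro-1-fluorobenzene, a contact allergen) or its vehicle acetone, and from the pancreas of WT mice given caerulein or its vehicle PBS, with 5 libraries per group. Male and female mice entered the skin protocol at 4 to 6 weeks of age, were sensitized on the abdomen, and were then challenged on the back with 0.25% DNFB 3 times per week for 22 days. Caerulein, a peptide that overstimulates the enzyme-secreting acinar cells, was injected at 50 μg/kg, 6 times per day on 3 days per week for 3 weeks. The labels call the skin samples epithelial skin, and the study's text describes them as isolated epidermal keratinocytes. Every group carried the WT genotype, and the DNFB vehicle was acetone mixed with olive oil. The labels number the libraries from 1 to 20, and these numbers are used below (acetone 1, DNFB 4 and so on). Nothing in the labels says that libraries came from separate animals, so the p-values measure the spread between libraries, which may in part be technical.

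Sebaceous glands are holocrine: sebocytes fill with lipid droplets, burst, and release sebum, a mixture of wax esters, triglycerides and sterol esters that coats hair and skin. Fatty acids are built by a cytosolic synthase, lengthened by elongases and made unsaturated by desaturases, and acyltransferases then join them to long-chain alcohols as wax esters. In the upper epidermis, very long chain fatty acids are built into the acylceramides of the water barrier instead. Bulk epidermis carries both programs together with hair follicle cells, so these genes report on several cell types at once.

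The epidermal and pancreatic labels were checked against marker genes, given here as summed CPM of usable counts (counts scaled to a common library total). Usable counts are those outside 11 satellite-like predicted genes, which took 37.8% to 94.3% of a library. Usable depth ran from 93048 to 1074202 in acetone, 150442 to 685832 in DNFB, 70021 to 202059 in PBS and 88226 to 592100 in caerulein libraries, with acetone 11 (1074202) and acetone 12 (938931) far above the other 3 acetone libraries (at most 153197). The 12 sebaceous markers outside the studied genes were all detected in both skin groups. They summed to 379 to 2296 in acetone and 512 to 1455 in DNFB libraries. In pancreas 11 of them were detected in PBS libraries (210 to 291) and all 12 in caerulein libraries (159 to 417). Detection alone therefore did not set skin apart, and the caerulein range overlapped that of acetone skin. Keratinocyte markers ran from 901 to 11563 in acetone and 823 to 9581 in DNFB skin, and acinar markers from 42150 to 224053 in PBS pancreas. Of other cell types, 14 hair shaft and inner root sheath markers summed to 215 to 8965 in acetone and 532 to 10209 in DNFB skin. In the same order, 7 leukocyte markers summed to 183 to 3804 and 261 to 750, and 6 fibroblast markers to 462 to 2535 and 432 to 731. The highest keratinocyte, hair, leukocyte and fibroblast sums in the acetone group were those of acetone 11 and 12. Leukocyte markers were at 2950 and 3804 there, against 183 to 266 in acetone 1, 2 and 3. Skeletal muscle markers were also present in skin (279 to 1108 in acetone, 304 to 768 in DNFB). The 9 adipocyte markers summed to 86.0 to 427 in acetone and 59.8 to 189 in DNFB. They lay below the sebaceous sum in every skin library, by the least in acetone 3 (333 against 379). The brown fat gene Ucp1 was at 0 in acetone skin and detected in DNFB skin.

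The groups of skin libraries separated for 1 of the 10 genes, Scd3, whose level was lower in DNFB than in acetone skin. Scd1 and Scd3 encode stearoyl-CoA desaturases, enzymes of the endoplasmic reticulum that put the first double bond into saturated fatty acids. Scd3 is known as a form enriched in sebaceous glands and the Harderian gland. In the GENCODE M21 annotation of GRCm38 both lie on chromosome 19, Scd1 (ENSMUSG00000037071) at chr19:44394455-44407879 on the minus strand and Scd3 (ENSMUSG00000025202) at chr19:44203269-44244016 on the plus strand. Their coding sequences are 1065 and 1077 bases long and 91.5% identical, with 185 bases as the longest identical run. The last 90 coding bases of each are printed here because they are what a counting program must tell apart. Both stretches lie in exon 6 of 6, at chr19:44397922-44398011 for Scd1 and chr19:44241767-44241856 for Scd3, and are written 5′ to 3′ on the coding strand with the 5 differing bases in capitals.
Scd1: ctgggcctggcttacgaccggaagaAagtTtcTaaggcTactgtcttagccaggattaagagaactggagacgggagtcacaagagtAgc
Scd3: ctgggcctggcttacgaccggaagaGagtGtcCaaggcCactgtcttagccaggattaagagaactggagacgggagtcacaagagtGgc
Of the 50-base words of the annotated Scd3 transcripts, 4.77% also occurred in Scd1 transcripts, and 3.42% of the Scd1 words occurred in Scd3 transcripts. Reads from such stretches fit both genes and are divided by the estimate of the quantifier. Scd1 had more counts than Scd3 in every skin library, so even a small part of its reads is large beside the Scd3 counts, and how far the division moved them was not tested.

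Levels are given as normalized CPM, that is CPM after scaling by edgeR's TMM factors within a comparison. Scd3 stood at 6.44, 11.4, 12.5, 9.37 and 20.7 in acetone 1, 2, 3, 11 and 12, and at 2.98, 1.70, 4.11, 0.783 and 0 in DNFB 4, 5, 6, 13 and 14. Every DNFB library lay below every acetone library. Behind these levels were 138 Scd3 counts in the acetone group (2 to 77 per library) and 19 in the DNFB group (0 to 11 per library). Scd3 did not pass the filter on low counts and had no test in the fit across genes. Its fitted log2 fold change was -2.55, and an exact permutation test (two-sided, on log2 values) gave p = 0.00794, the lowest value 5 against 5 libraries can reach, unadjusted and 1 of 3 such tests in skin. Without the filter the log2 fold change was -2.64 ± 0.73 (SE), with an adjusted p of 0.101 in edgeR over 43251 genes, and DESeq2 gave -2.54 ± 0.77 with an adjusted p of 0.176, so neither fit passed the 0.05 threshold. Among all 43251 genes with a skin count, 0.347% had every DNFB library below every acetone library, and 1.25% of the genes past the filter had groups without overlap in either direction. In a bulk sample, fewer sebaceous cells and less Scd3 RNA per cell cannot be told apart.

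Scd3 was also lower in DNFB skin relative to its near-copy Scd1. Scd1 stood at 16.1, 114, 57.0, 70.6 and 116 normalized CPM in the acetone libraries and at 72.6, 35.7, 80.3, 54.8 and 36.8 in the DNFB libraries. The Scd1 groups overlapped almost wholly, with the lowest and the highest library both in acetone, and the log2 fold change was -0.42 ± 0.57 (SE, edgeR adjusted p = 0.976). Scd3 took 28.6%, 9.09%, 17.9%, 11.7% and 15.1% of the Scd1 plus Scd3 counts in acetone 1, 2, 3, 11 and 12. In DNFB 4, 5, 6, 13 and 14 the share was 3.94%, 4.55%, 4.87%, 1.41% and 0%. The groups did not overlap: the mean was 16.5% ± 7.54 (SD, n = 5) in acetone and 2.95% ± 2.14 (SD, n = 5) in DNFB, a difference of -13.5 percentage points (exact permutation test, two-sided, p = 0.00794, again the smallest possible). This share needs no scaling between libraries, and it was chosen after the counts had been seen. It uses the same Scd3 counts as the permutation test above, so its p-value is not separate evidence. Of the other 7264 genes past the filter, 0.647% had a share against Scd1 without overlap between the groups. The share rests on few reads in places, 7 counts of both genes in acetone 1 and 22 in DNFB 5, and the 95% Wilson intervals, which cover counting error only, were 8.22% to 64.1% and 0.807% to 21.8% there. In the deepest libraries they were 8.94% to 15.2% in acetone 11, 12.3% to 18.5% in acetone 12 and 2.74% to 8.50% in DNFB 6. Scd2, the desaturase of brain and many other tissues had 4 to 167 counts in the acetone and 2 to 123 in the DNFB libraries and a log2 fold change of 0.49 ± 0.59 (SE, edgeR adjusted p = 0.976).

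**Figure D1:**
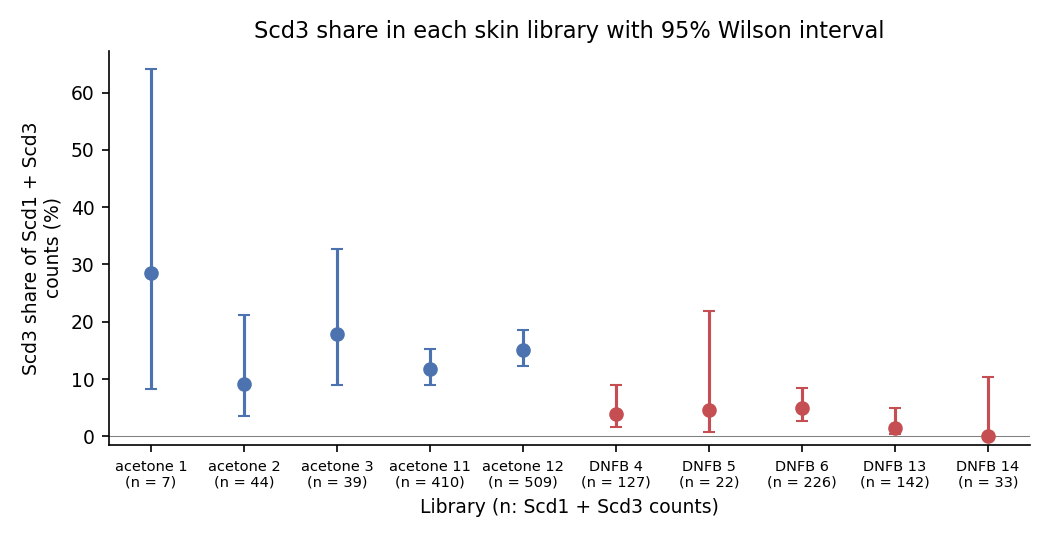
Scd3 share of the Scd1 plus Scd3 counts (percent, vertical axis) in each skin library (horizontal axis, with the number of counts behind it); points are the shares and bars the 95% Wilson intervals. The 5 acetone libraries sit between 9.09% and 28.6%, all above the 5 DNFB libraries at 0% to 4.87%.

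The other genes showed no difference between DNFB and acetone skin that passed the test. Of the 10 genes, 7 passed the filter (not Scd3, Fads2 and Awat2), and 0 of the 7 were past the adjusted threshold of edgeR, or past an unadjusted p of 0.05. DESeq2 also called 0 of 10, with 1, Scd3, under an unadjusted p of 0.05. In the whole table edgeR called 3 of 7265 genes (0.0413%), and 214 higher and 208 lower genes were under 0.05 unadjusted. The median log2 fold change of the 7 was 0.12, beside 0.02 over all genes tested. These libraries leave wide margins, since the standard errors of the 7 genes ran from 0.54 to 0.69 on the log2 scale.

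Fasn encodes fatty acid synthase, the enzyme that builds palmitate. It stood at 12.9, 31.2, 14.2, 38.4 and 33.3 normalized CPM in the acetone libraries and at 29.8, 6.79, 37.0, 40.0 and 8.92 in the DNFB libraries. The DNFB libraries spread more widely, with DNFB 5 and 14 below and DNFB 13 above every acetone library, and the groups overlapped (log2 fold change -0.09 ± 0.54 SE, edgeR adjusted p = 0.995). Fads2, the delta-6 desaturase of polyunsaturated fatty acids that also makes sapienic acid in human sebum, was thin, with 0 to 39 counts in the acetone and 0 to 24 in the DNFB libraries, and its levels of 0 to 7.61 and 0 to 8.97 overlapped (exact permutation test, p = 0.873).

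The elongases were among the better measured genes. Elovl4, which makes the ultra long chain fatty acids of acylceramides, stood at 22.6, 136, 39.2, 74.7 and 88.4 normalized CPM in acetone and at 66.1, 40.8, 54.6, 72.9 and 26.8 in DNFB libraries. The DNFB libraries fell within the acetone range (log2 fold change -0.46 ± 0.57 SE, edgeR adjusted p = 0.976). Elovl3, which makes saturated and monounsaturated fatty acids for sebum and brown fat, stood at 25.8, 51.1, 3.56, 6.44 and 8.33 in acetone and at 17.9, 30.6, 35.1, 10.2 and 11.2 in DNFB libraries. Acetone 2 and acetone 1 were high and the other 3 acetone libraries lay below every DNFB library, so the groups overlapped (log2 fold change 0.32 ± 0.66 SE, edgeR adjusted p = 0.976). Without acetone 11 and 12 the Elovl3 value was -0.19, without DNFB 6 it was below 0.01 in size, and without acetone 2 or acetone 1 it was up to 1.15, all far from the threshold.

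Awat1 and Awat2 encode acyl-CoA wax alcohol acyltransferases, which make the wax esters of sebum, and lie on chromosome X. Awat1 stood at 19.3, 31.2, 3.56, 1.37 and 6.18 normalized CPM in acetone and at 7.14, 16.98, 11.2, 9.40 and 11.2 in DNFB libraries. The spread was wide in acetone, whose libraries 1 and 2 were the highest and 11 the lowest of all 10, and narrow in DNFB (log2 fold change 0.12 ± 0.69 SE, edgeR adjusted p = 0.995). The value turned to -0.26 without acetone 11, -0.13 without acetone 12 and -0.58 without both. Awat2 had 25 counts in acetone and 16 in DNFB skin, and the groups overlapped (exact permutation test, p = 0.960).

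Cidea coats lipid droplets and promotes their fusion in sebocytes and brown fat. It was at 0 in acetone 1 and 3 and at 3.90 to 8.52 normalized CPM in the other 3 acetone libraries, against 1.70 to 10.1 in DNFB libraries, with overlap (log2 fold change 0.26 ± 0.64 SE, edgeR adjusted p = 0.976). Mgst1, a membrane-bound glutathione transferase that guards membranes against lipid peroxides and is abundant in sebocytes, stood at 16.1, 62.5, 23.1, 32.4 and 27.7 in acetone and at 42.3, 15.3, 71.7, 27.0 and 18.96 in DNFB libraries. Again 1 library stood out in each group, acetone 2 and DNFB 6 (log2 fold change 0.15 ± 0.54 SE, edgeR adjusted p = 0.989).

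**Figure D2:**
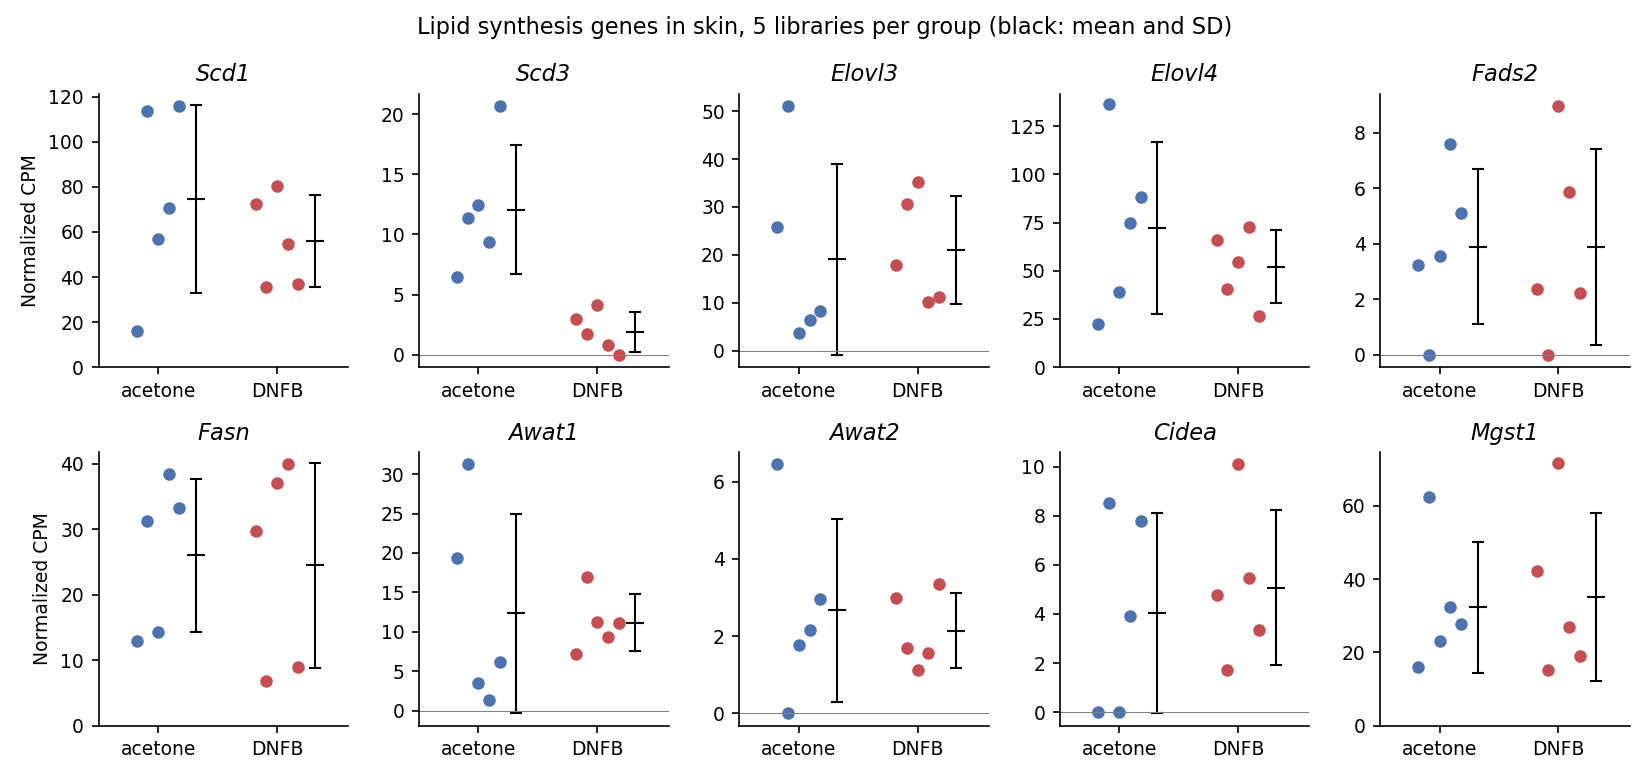
Normalized CPM (vertical axis, linear, 1 scale per gene) of the 10 genes in acetone and DNFB skin; each point is 1 of 5 libraries, and the black mark and bar are the mean and SD. The acetone and DNFB points overlap for every gene but Scd3, whose DNFB libraries (0 to 4.11) all lie below the acetone libraries (6.44 to 20.7).

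**Figure D3:**
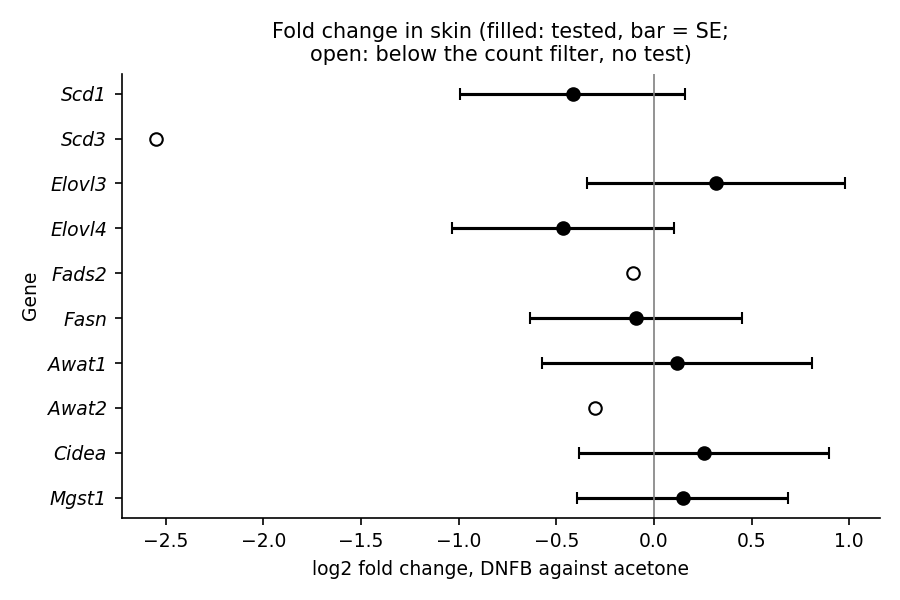
Log2 fold change of DNFB against acetone (horizontal axis) for each gene (vertical axis); filled points are genes tested by edgeR with the bar as SE, open points are genes below the count filter, fitted without a test. The tested genes lie between -0.46 and 0.32, and Scd3 lies at -2.55.

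The 10 genes together took 0.0430% to 0.126% of the usable counts in acetone and 0.0471% to 0.123% in DNFB libraries. Within these counts Scd1 and Elovl4 led, with 27.8% ± 9.81 (SD, n = 5) and 26.2% ± 5.39 in acetone and 26.5% ± 2.95 and 24.9% ± 5.55 in DNFB, and Scd3 took 5.15% ± 2.12 in acetone and 0.794% ± 0.585 in DNFB. Compared per length of the longest annotated transcript, as CPM of usable counts per kb, the medians in acetone skin put Elovl4 (117), Mgst1 (94.0) and Scd1 (66.7) first. Awat1 (17.6), Elovl3 (17.6), Cidea (16.7) and Scd3 (12.8) followed, and Fasn (8.81), Awat2 (5.16) and Fads2 (4.14) were last. The ranges of neighbours in this order overlapped. In DNFB skin Mgst1 (100.1), Elovl4 (70.9) and Scd1 (49.0) again led, and Scd3 (1.91) moved from seventh place to last.

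**Figure D4:**
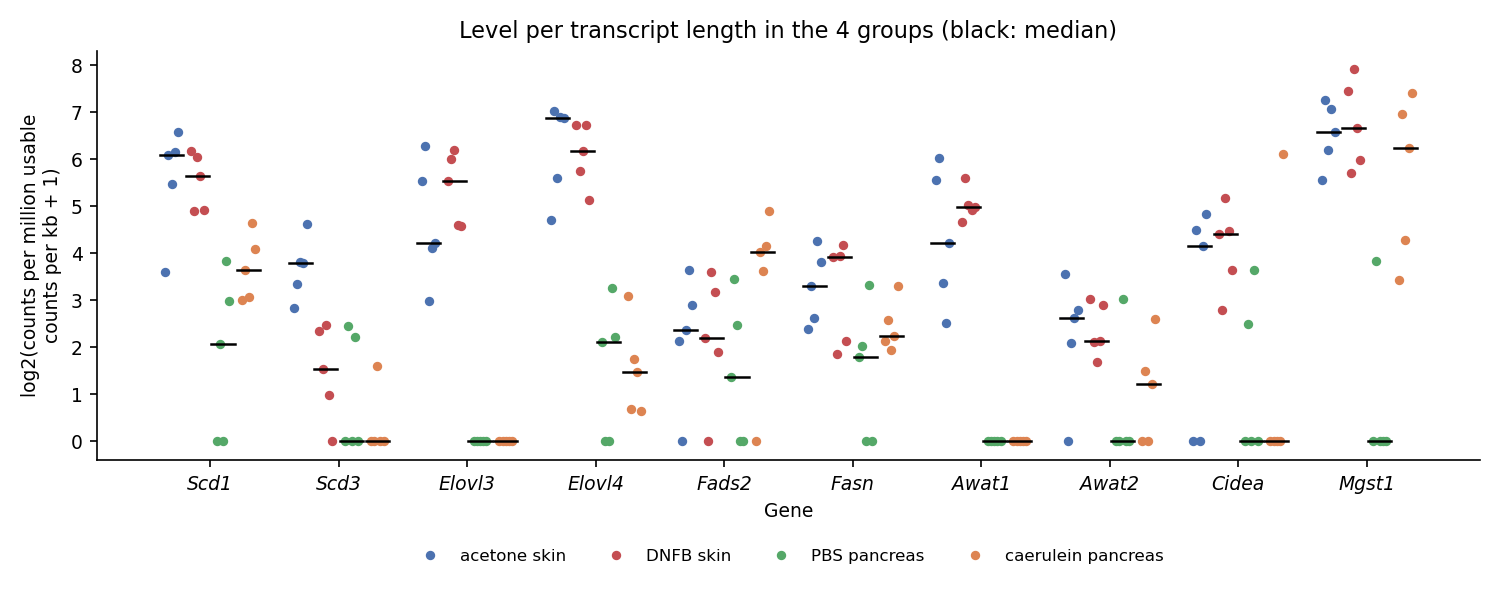
Level per transcript length, as log2 of CPM of usable counts per kb plus 1 (vertical axis), of each gene (horizontal axis) in the 4 groups; points are libraries and black lines medians. Elovl3 and Awat1 sit at 0 in all 10 pancreas libraries, and Mgst1 is at 0 in 4 of 5 PBS libraries and above 0 in all 5 caerulein libraries.

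The genes did not vary as 1 block across the skin libraries. Of the 45 pairs of genes, 26 had a Pearson r above 0 over the 10 libraries on the log2 scale, with a median of 0.09. The closest pairs were Scd1 with Elovl4 (r = 0.89) and Elovl3 with Awat1 (r = 0.84), and the farthest was Elovl4 with Awat2 (r = -0.71). To Scd1, the gene with the most counts, Mgst1 (0.75), Cidea (0.75) and Fasn (0.70) came after Elovl4. Scd3 (0.44), Fads2 (0.09), Elovl3 (-0.06), Awat1 (-0.24) and Awat2 (-0.65) were lower. Of 7258 genes tested outside the list, 98.3% had a lower r to Scd1 than Elovl4. For Mgst1, Cidea and Fasn this was 90.3%, 90.1% and 86.8%, so many unrelated genes were as close. Depth moved with these levels: r with log2 usable depth was 0.71 for Fads2, 0.70 for Fasn, 0.63 for Cidea and 0.56 for Scd1, but -0.37 for Elovl3 and -0.63 for Awat1, and its part in the correlations was not tested. The 8 genes outside the list most like Scd1 were Scp2 (r = 0.97), a sterol and fatty acid carrier, then Sbds, Nit2, Kmt2e, Cdk5rap3, Bcas2, Polr2m and Erlin2 (0.94 to 0.96). These correlations are descriptions over 10 libraries of both treatments, which share their sequencing depth as a source of variation.

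The wider pathways were read from lists of the enzymes around these genes, some of which hold genes of the 10. In skin, edgeR called 0 genes of each list. This held for fatty acid synthesis (5 of 10 tested), desaturation (5 of 10), elongation (10 of 12), acyl-CoA synthetases (5 of 10), wax ester, sterol ester and triglyceride acyltransfer (5 of 14), lipid droplet (7 of 16), epidermal acylceramide and barrier lipid (17 of 25), cholesterol synthesis (21 of 23), regulators of lipid synthesis (10 of 16) and membrane glutathione transferases (2 of 6). The list medians ran from -0.98 on the log2 scale for acyl-CoA synthetases to 0.28 for membrane glutathione transferases. The gene nearest to the threshold was G0s2, an inhibitor of the triglyceride lipase Pnpla2, named after its values were seen. It had 0, 0, 1, 1 and 2 counts in acetone 1, 2, 3, 11 and 12 and 8, 9, 13, 37 and 59 in DNFB 4, 5, 6, 13 and 14. Every DNFB library lay above every acetone library although acetone 11 and 12 were the deepest. Its log2 fold change was 5.36 ± 1.01 (SE, edgeR adjusted p = 0.0581), and the fit without a filter (4.71, adjusted p = 0.000438) and DESeq2 (5.12, adjusted p = 0.0005) called it higher. In pancreas the fit without a filter called G0s2 higher too, and DESeq2 did not. It had 0 counts in every PBS library and 0, 88, 2, 3 and 0 in caerulein 9, 10, 18, 19 and 20. In skin the fit without a filter also called 1 list gene lower, Slc27a3. This fatty acid transport protein of the acyl-CoA synthetase list had 133 counts in acetone and 13 in DNFB skin. Its log2 fold change was -2.91 ± 0.74 (SE, edgeR adjusted p = 0.0427) in that fit and -2.56 in DESeq2 (adjusted p = 0.362), and it did not pass the filter.

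In pancreas the genes were sparse, and the only call was on Mgst1. The 10 genes together took 0.00286% to 0.0206% of usable counts in PBS libraries and 0.0102% to 0.0544% in caerulein libraries. Elovl3 and Awat1 had 0 counts in all 10 pancreas libraries, and the other 8 genes had 0 to 117 counts per library. None passed the filter, which left 946 genes, of which 115 (12.2%) were called (77 higher, 38 lower in caerulein). Mgst1 had 0, 3, 0, 0 and 0 counts in PBS 7, 8, 15, 16 and 17 and 1, 80, 3, 33 and 117 in caerulein 9, 10, 18, 19 and 20. As normalized CPM this was 0 to 2.62 in PBS and 1.21, 15.9, 2.34, 8.50 and 23.0 in caerulein, so caerulein 10, 19 and 20 were above every PBS library and caerulein 9 and 18 were within reach of PBS 8. The ratio of the summed counts per effective library size was 17.1 (exact 95% interval 5.79 to 83.6, counting error only). The exact permutation test gave p = 0.0238, unadjusted and 1 of 8 in pancreas. The fitted log2 fold change of 3.70 was 7.47 without PBS 8, where every remaining PBS library was at 0 and the value depends on the prior count. Without the filter edgeR called it higher (log2 fold change 4.42 ± 0.95 SE, adjusted p = 0.000849), as did DESeq2 (4.36 ± 1.29, adjusted p = 0.0192), where 3.18% and 7.63% of all genes tested were called higher. It was 1 of 8 genes tested without the filter and 1 of 4 in DESeq2.

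Leukocyte, fibroblast and acinar markers differed between caerulein 10, 19 and 20, where Mgst1 was highest, and caerulein 9 and 18. Leukocyte markers summed to 12994, 10213 and 2810 CPM of usable counts in caerulein 10, 19 and 20, against 907 and 1286 in caerulein 9 and 18 and 119 to 742 in PBS libraries. Fibroblast markers were at 10032, 4897 and 2670 in those 3 libraries, 1201 and 1371 in caerulein 9 and 18, and 69.3 to 2830 in PBS. Acinar markers were at 5902, 8744 and 10890 against 38322 and 67363 in caerulein 9 and 18. Duct markers did not follow this split. They were at 1096 in caerulein 20, the library with the highest Mgst1 level, and at 116 to 357 in the other 9 pancreas libraries. Caerulein 10 and 19 had 182 and 170, below 238 and 357 in caerulein 9 and 18. Of 5 duct markers tested, DESeq2 called 2 higher in caerulein pancreas, the duct keratins Krt19 (log2 fold change 4.58, adjusted p = 0.0019) and Krt7 (4.03, adjusted p = 0.0214). Caerulein 10, 19 and 20 were also the deepest of the pancreas, with 376954 to 592100 usable counts. The part of these differences in the Mgst1 result was not tested. Among related membrane proteins, Alox5ap, the leukotriene synthesis partner of 5-lipoxygenase, had 3 counts in all in PBS libraries and 3, 316, 1, 44 and 39 in caerulein 9, 10, 18, 19 and 20, and was also called by DESeq2 (log2 fold change 5.24, adjusted p = 0.00696). Most of its counts came from caerulein 10, the library with the highest leukocyte sum. Cyb5a, the electron donor of the desaturases, had 2 and 281 counts and was called as well (5.16, adjusted p = 0.00401). Of the other pathway list genes, DESeq2 called Cyb5r3, Hacd3 and Hilpda higher in caerulein pancreas. The fit without the filter called Alox5ap, Cyb5a, Cyb5r3, Hsd17b12, Hacd2, Elovl1, G0s2, Hilpda, Asah1, Ebp, Fdps and Myc higher. Of all genes tested, 7.63% were called higher in DESeq2 and 3.18% without the filter.

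The remaining genes gave no call in pancreas. Scd1 had 0, 3, 0, 5 and 3 counts in PBS 7, 8, 15, 16 and 17 and 3, 31, 5, 44 and 46 in caerulein 9, 10, 18, 19 and 20, or 0 to 8.99 and 3.64 to 11.3 normalized CPM, with overlap (exact permutation test, p = 0.119). Fads2 had 8 counts in PBS and 106 in caerulein libraries, Fasn 18 and 102, with overlapping levels (exact permutation tests, p = 0.206 and p = 0.429). Elovl4 had 5 and 7 counts, Scd3 4 and 1, and Awat2 1 and 9. Cidea had 2 counts in PBS and 45 in caerulein pancreas, all 45 of them in caerulein 20. That library also held 86 counts of Thrsp, a lipogenic gene of fat and liver, and 11 of the adipocyte hormone Adipoq. Each of the other 9 pancreas libraries had at most 3 and 2. Of the adipocyte markers, Plin1 and Ucp1 were at 0 in all caerulein libraries, and DESeq2 called 0 of the 2 tested in pancreas. The 9 adipocyte markers summed to 164 CPM of usable counts in caerulein 20, the highest of the pancreas libraries, and to 120 in caerulein 10. The sums were 22.7 to 55.7 in caerulein 9, 18 and 19 and 34.6 to 77.4 in PBS libraries.

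**Figure D5:**
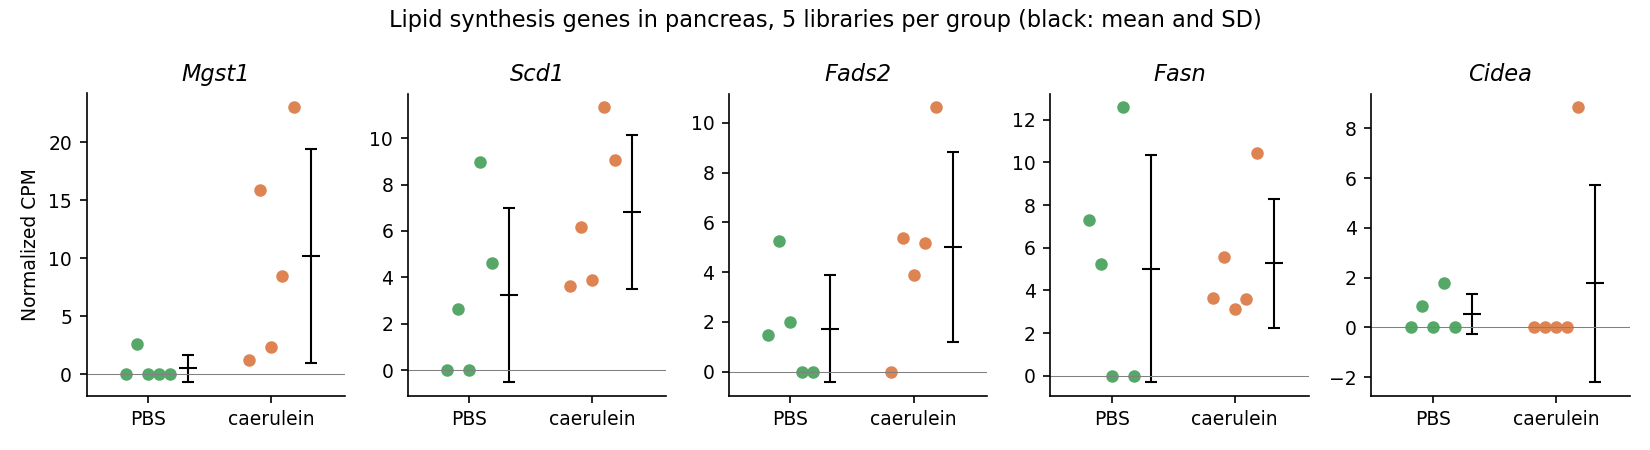
Normalized CPM (vertical axis, linear, 1 scale per gene) of 5 genes in PBS and caerulein pancreas; each point is 1 of 5 libraries, and the black mark and bar are the mean and SD. Mgst1 reaches 8.50 to 23.0 in 3 caerulein libraries against at most 2.62 in PBS, and Cidea is above 0 in 1 caerulein library.

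The control tissues show where the genes were expressed without inflammation. Acetone skin and PBS pancreas also differ in dissection, so tissue and handling cannot be told apart. None of the 10 genes passed the filter, which left 736 genes with 185 called (25.1%). Without the filter 5 of 10 genes were higher in skin (2.45% of all genes tested were called higher), and DESeq2 called the same 5 (6.81%): Scd1, Elovl3, Elovl4, Awat1 and Mgst1. For Scd1, Scd3, Elovl3, Elovl4, Awat1 and Mgst1 every acetone library lay above every PBS library, which was true of 2.10% of genes with a count (exact permutation test, p = 0.00794 for each, unadjusted, among 10 tests). Elovl4 had 789 counts in acetone skin and 5 in PBS pancreas (log2 fold change 4.83 ± 1.002 SE without the filter, edgeR adjusted p = 0.000331), and Scd1 had 871 and 11 (3.89 ± 0.93, adjusted p = 0.0033). For Mgst1, with 309 and 3 counts, the ratio was 20.04 (exact 95% interval 6.79 to 97.7). Elovl3 had 92 counts against 0, and Awat1 had 49 against 0. Against a floor of 3 counts over the PBS group, the ratios of summed counts were 5.97 for Elovl3 and 3.18 for Awat1. These ratios do not cover the spread between libraries. Of the Elovl3 counts, acetone 11 and 12 held 33 and 31, and acetone 3 held 2. Fads2 (61 and 8 counts), Fasn (344 and 18), Awat2 (25 and 1) and Cidea (52 and 2) overlapped between the tissues. Of the elongation list Hacd2 and Tecr, the dehydratase and reductase of each elongation cycle, were tested with the filter, and both were higher in skin. The log2 fold change was 5.49 ± 0.99 (SE, edgeR adjusted p = 0.000167) for Hacd2 and 2.10 ± 0.71 (SE, edgeR adjusted p = 0.0328) for Tecr.

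The DNFB response of skin and the caerulein response of pancreas were compared by fitting the 4 groups of libraries jointly. Of the 10 genes 8 passed the filter, and for Elovl3 and Awat1 among them no difference could be estimated, since both were at 0 in every pancreas library. None of the 8 were called, beside 22 of 8336 genes (0.264%). The median difference over all genes tested was -0.38. Under an unadjusted p of 0.05 was 1 of the 8, Mgst1. Its log2 change was 0.15 in skin and 3.70 in pancreas in the separate fits, and the joint fit put the skin response 3.26 ± 1.15 (SE) lower on the log2 scale (difference -3.26, edgeR adjusted p = 0.138). Without the filter the difference was -4.35 (adjusted p = 0.0329), DESeq2 gave -4.08 (adjusted p = 0.0491), and leaving out PBS 8, the only PBS library with Mgst1 counts, gave -7.91 (adjusted p = 0.0425), a value that also depends on the prior count. In the fit without the filter and in DESeq2, 2.07% and 3.54% of all genes tested were called lower in skin. For Scd1 the difference was -1.41 ± 0.93 (SE, edgeR adjusted p = 0.413).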

How the data were processed

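Full-length cDNA libraries (Smart-Seq2, without molecular identifiers) were sequenced from 20 samples in 4 groups of 5. The submitters' notes name STAR 2.5.3, RSEM 1.3.1 and DESeq2 1.24.0. The authors deposited expected counts per gene, which RSEM estimates by dividing reads that fit several genes, and 94.71% of the values were whole within 1e-06. These were rounded. Of 55471 genes, 55230 were given a symbol from the GENCODE M21 annotation, and 0 columns were left unused. Total counts ran from 791491 to 2232039 per library, and usable counts, outside 11 satellite-like genes (50% or more of 15-base words found in satellite repeat transcripts), from 70021 to 1074202. No 2 libraries of a group agreed within sampling noise.

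Each comparison was fitted with edgeR 4.0.16 (R 4.3.3) by its quasi-likelihood test on its own libraries, after filterByExpr with a minimum count of 10 and TMM scaling, with Benjamini-Hochberg adjustment over all genes tested and a threshold of 0.05. Standard errors are those of the fitted log2 fold change. Genes below the filter were given a two-sided exact permutation test on log2(normalized CPM + 1), 21 tests in all, unadjusted. The interaction was fitted on all 20 libraries. Alternatives were no filter, library totals, DESeq2 size factors, DESeq2 1.42.0, omission of satellite-like genes, covariates, all libraries in 1 fit and libraries left out. The fits were tested on simulated data in which only well-counted genes were changed, so genes with as few counts as Scd3 were not covered.

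The text names the 10 genes in every comparison, genes of the pathway lists past the threshold with the filter, and the 8 genes most like Scd1 in skin. For pancreas it also names pathway list genes called without the filter or by DESeq2. G0s2, Slc27a3, Scd2, Cyb5a, Alox5ap, Thrsp, Adipoq, Krt19 and Krt7 were named after their values were seen. The genes and lists were chosen with earlier results of these data known. Intervals cover counting error only, because reads without molecular identifiers are not independent molecules.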

Additional observations from a re-analysis of the deposited data

Results flagged for a closer look

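In 4 of 36 sets of 5 libraries, 1 library stood apart from the others by the whole range of the set (gap over range of 1, above the critical value of 0.71). In each of them the other 4 libraries were at 0, so the ratio is 1 by construction even for a single count, and the rate of about 1 set in 20 that this critical value gives by chance does not apply. These were Scd3 in caerulein 18 (1 count, 0.78 normalized CPM), Awat2 in PBS 15 (1 count, 1.98 normalized CPM), Mgst1 in PBS 8 (3 counts, 2.62 normalized CPM) and Cidea in caerulein 20 (45 counts, 8.85 normalized CPM).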

How the results depend on the processing

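No paired analysis was possible because no number in the labels occurs in more than 1 group. In skin, 0 of the 10 genes passed under every alternative run, although the genes called over the whole table numbered 2 higher and 1 lower with the filter, 40 and 68 without it, and 38 and 40 in DESeq2. In pancreas 1 gene (Mgst1) passed without the filter, 1 in DESeq2 and 1 with all 20 libraries in 1 fit. Between control tissues 5 passed without the filter, 5 in DESeq2, 5 with all 20 libraries in 1 fit and 1 (Elovl4) without satellite-like genes. With libraries left out in turn 0 to 3 passed, 3 (Scd1, Elovl4 and Mgst1) without acetone 1 or any 1 PBS library. For the difference between the responses 1 gene (Mgst1) passed without the filter and 1 in DESeq2, and 0 to 1 with libraries left out in turn. Small log2 fold changes turned sign without coming near the threshold. In skin, with the Y-linked level as covariate, Elovl3 was -0.019 and Fasn 0.10. Without acetone 11 and 12 Elovl3 was -0.19, Fasn 0.52 and Awat1 -0.58, Cidea moved from 0.26 to 1.203 and Fads2 from -0.11 to 0.99 (neither of these 2 tested in that fit), and with all 20 libraries Fasn was 0.018. With libraries left out in turn, Elovl3 ran from -0.0013 to 1.15, Fasn from -0.33 to 0.16, Awat1 from -0.26 to 0.90, Cidea from -0.18 to 0.72 and Mgst1 from -0.31 to 0.50. For the difference between the responses, Elovl4 was -0.088 without the filter and -0.64 with library totals, and Fasn was 0.021 with the run of label numbers (1 to 10 or 11 to 20) as covariate, 0.067 with the Y-linked level and 0.40 without acetone 11 and 12. With libraries left out it ran from -0.48 to 0.25 for Fasn and from -2.01 to 4.36 for Cidea, the highest without caerulein 20. The cause of these changes was not tested. The difference in Scd3 share ran from -15.4 to -10.5 percentage points with skin libraries left out in turn. It was -8.80 as a share of all 4 Scd genes. Without acetone 11 and 12 it was -15.6 (exact permutation test, p = 0.0357, the smallest possible with the libraries left). Both alternatives were chosen after seeing the data. Depth limits the pancreas values, where 8 of the 10 genes had under 10 counts over the PBS group.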
